A study of Mus musculus with 12 samples.

Results

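The genotype by temperature interaction asks, for each gene, whether cold changed its expression by a different amount, or in a different direction, in fat of the 2 genotypes. It was taken as the AKO minus WT difference at 8 °C less the same difference at 30 °C, which is also the cold response in AKO less the cold response in WT. All 12 libraries of the study entered it, and 13215 of the 24344 genes listed were tested, namely those at 1 FPKM or more in at least 3 libraries. FPKM is a fragment count divided by transcript length and library size. Differences were taken on log2(FPKM + 1), which understates the change of genes near or under 1 FPKM.

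The tissue was inguinal white adipose tissue, the subcutaneous fat of the mouse groin, from C57BL/6J mice aged 10 weeks. Housing was at room temperature for 4 weeks and then at 30 °C for 6 weeks, after which mice were either moved to 8 °C or kept at 30 °C for 3 days. The groups of 3 mice each were WT_30C, WT_8C, AKO_30C and AKO_8C. The genotype label of the AKO mice is IRE1(alpha)-/-, that of the others is WT, and the series title calls the lines Ern1f/f and Ern1f/f AKO. If the WT mice are the Ern1f/f line of the title, both genotypes carry the floxed allele. The labels give no Cre driver, no deleted exon and no sex, so the cells in which the gene was deleted are not stated.

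In inguinal fat, cold acts through sympathetic nerves and the β-adrenergic receptors of adipocytes, and part of the tissue turns on a thermogenic, or beige, programme built on mitochondria and the uncoupling protein UCP1. IRE1α, the product of Ern1, is a sensor in the membrane of the endoplasmic reticulum: on activation its nuclease splices Xbp1 mRNA and can cleave other transcripts. A separate arm, the integrated stress response, slows translation and raises the transcription factor ATF4, whose known targets include amino acid synthesis, tRNA charging, Fgf21 and Gdf15.

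The read depth behind the FPKM values is unknown, so no counting error can be given. Each library had 12433 to 12818 genes at 1 FPKM or more. Adipocyte genes were abundant throughout, with Adipoq, the adiponectin gene, at 972 FPKM or more in every library. WT_8C replicate 1 stood apart in mammary epithelial markers, whose summed level without Trf, which other cells also make, was 128 FPKM there and at most 12.04 FPKM elsewhere. The milk gene Csn1s1 was listed at 0 in all 12 libraries. The labels speak of 3 mice per group, so p-values here measure the spread between mice.

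Ern1 itself did not show a loss in the libraries labelled AKO. Its level was 2.53, 3.32 and 2.97 FPKM in WT_30C, 4.53, 5.16 and 5.20 FPKM in WT_8C, 4.50, 4.24 and 3.45 FPKM in AKO_30C and 6.83, 6.92 and 7.37 FPKM in AKO_8C. Every library labelled AKO lay above every WT library at the same temperature. Cold raised Ern1 in both genotypes, by 0.60 in WT and 0.67 in AKO on the log2 scale, and the interaction was 0.07 (SE 0.16, limma adjusted p = 0.865). A value summed over all exons does not show whether some were deleted. Nor does it tell the stated labels from exchanged ones, and an exchange would turn the sign of every interaction given here.

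Most cold responses that passed in both genotypes had the same direction. In WT, 6479 genes passed an adjusted p of 0.05 (49% of those tested), with 3211 higher (24.3%) and 3268 lower (24.7%) at 8 °C. In AKO, 6548 passed (49.5%), with 3498 higher (26.5%) and 3050 lower (23.1%). These comparisons share no library, but both use the same estimate of each gene's spread from all 12 libraries, so their calls are not independent. A total of 4753 genes passed both, which is 73.4% of the WT calls and 72.6% of the AKO calls. Of these, 4729 changed in the same direction. Across the 13215 genes, Pearson's r between the log2 cold responses was 0.83 and the slope of AKO on WT was 0.93, as a description over genes that share libraries within each genotype. The median absolute cold response was 0.37 in WT and 0.38 in AKO.

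**Figure D1:**
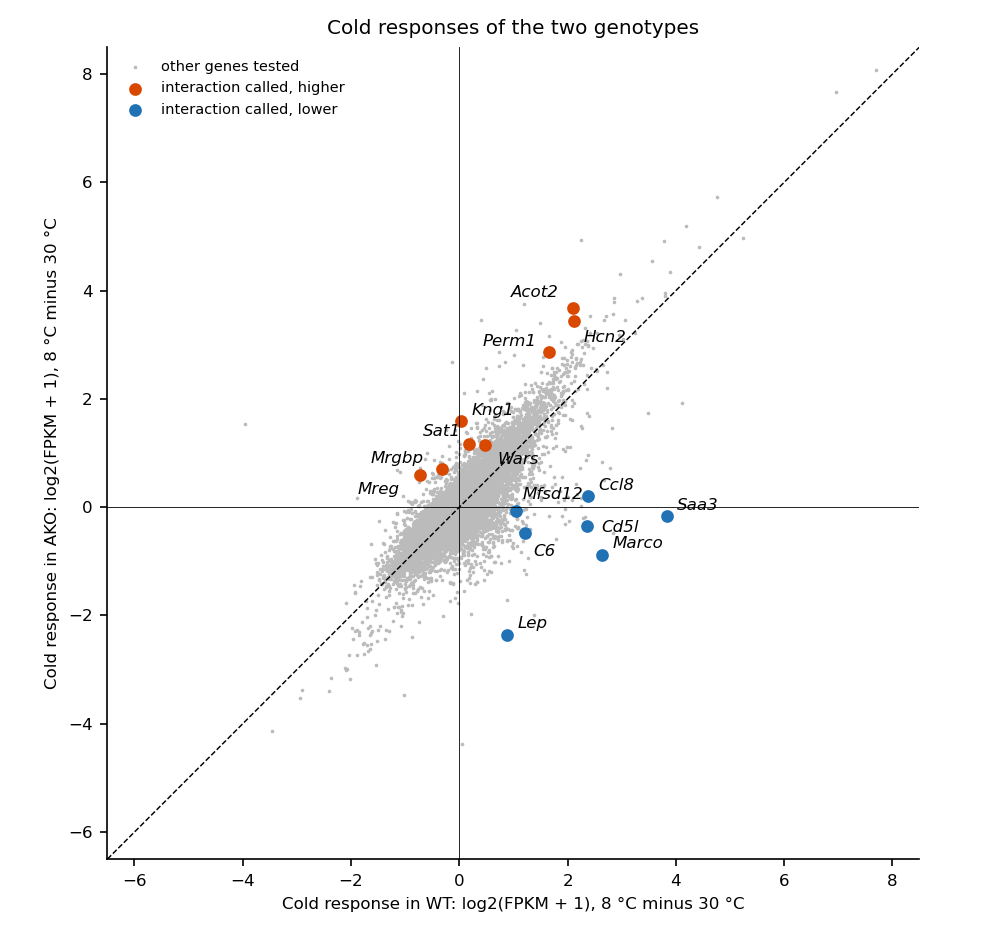
Cold response of each of the 13215 genes tested, as the log2(FPKM + 1) difference between 8 °C and 30 °C, in WT (x axis) and in AKO (y axis); the dashed line marks equal responses. Genes passing the interaction test at an adjusted p of 0.05 are coloured and named, 8 above the line and 7 below it.

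The interaction itself passed the test for 15 genes, 0.114% of those tested. The interaction was positive, meaning a more positive cold response in AKO, for 8 genes (0.0605%): Acot2, Kng1, Hcn2, Mreg, Perm1, Mrgbp, Sat1 and Wars. It was negative for 7 genes (0.053%): Saa3, Marco, Lep, Cd5l, Ccl8, C6 and Mfsd12. At an unadjusted p under 0.05 there were 1188 positive (8.99%) and 777 negative (5.88%) interactions. The median interaction of all genes tested was 0.07, and 59.7% of them were positive. The balance of calls moved with the scale: 3 positive and 7 negative passed with upper quartile scaling, 3 and 5 with equal sums, and 42 and 8 on the square root of FPKM. Calls depended on single libraries although signs did not. With WT_30C replicate 1, 2 or 3 left out, 0, 1 and 0 genes passed, and with AKO_30C replicate 1, 2 or 3 left out, 2, 1 and 0 passed. Without AKO_8C replicate 1, 2 or 3, 0, 9 and 0 passed. Without WT_8C replicate 1, 2 or 3, 13, 15 and 12 passed. In the fits with no call the smallest adjusted p lay between 0.0619 and 0.0782, and 1394 to 1731 genes had an unadjusted p under 0.05. Every one of the 15 genes kept its sign in each of the 12 fits in which it was tested.

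C6 and Ccl8 were the last genes inside the threshold, both with an adjusted p of 0.0444. The first outside were Fgf21 (interaction 2.68, adjusted p = 0.0544), Timm10 (0.69, adjusted p = 0.0574) and Mthfd2 (1.27, adjusted p = 0.0613). The largest interactions by size were not calls: Eif3j1 (5.51, adjusted p = 0.160) and Snord17 (−4.43, adjusted p = 0.231) switched between values near 0 and above 10 FPKM among replicates of a group.

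**Figure D2:**
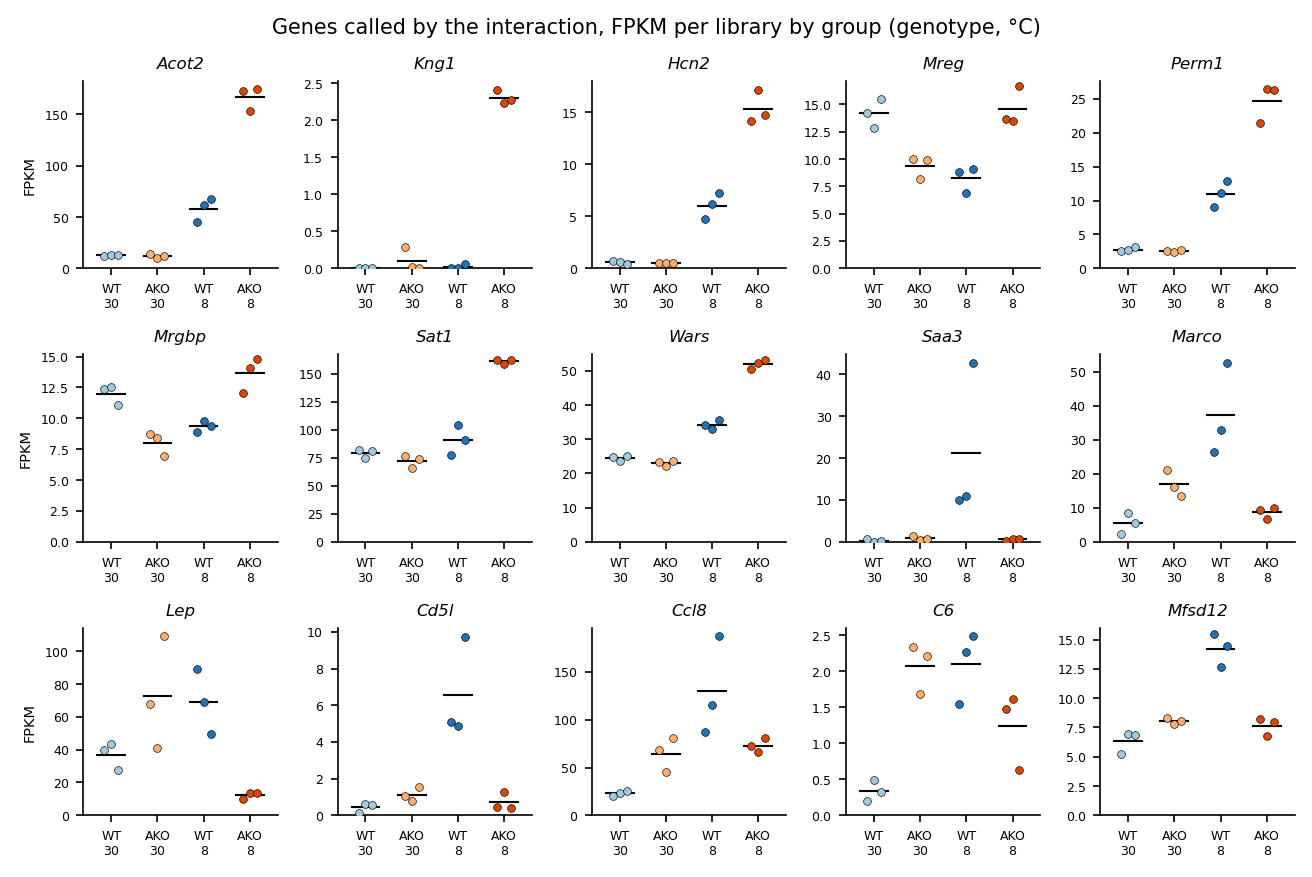
FPKM of the 15 genes that passed the interaction test, 1 point per library and a line at each group mean, for WT and AKO at 30 °C and 8 °C; each panel has its own axis from 0. The 3 AKO_8C libraries lie above all others for Acot2, Kng1, Hcn2, Perm1, Sat1 and Wars, and the 3 WT_8C libraries lie above all others for Saa3, Marco, Cd5l, Ccl8 and Mfsd12.

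Acot2 and Perm1, genes of mitochondrial fuel use, rose in both genotypes in the cold and rose further in AKO. Acot2, on chromosome 12, 83987861 to 83993873 (GRCm38), encodes a mitochondrial thioesterase that releases fatty acids from coenzyme A. It stood at 12.3, 12.6 and 12.6 FPKM in WT_30C and at 14.3, 10.2 and 11.96 FPKM in AKO_30C. At 8 °C it stood at 44.7, 61.4 and 67.5 FPKM in WT and at 172, 154 and 174 FPKM in AKO. The genotypes overlapped at 30 °C and were apart at 8 °C. Group means rose 4.63-fold in WT and 13.7-fold in AKO, an interaction of 1.58 (SE 0.21, adjusted p = 0.0267). The log2 difference of AKO over WT was −0.05 at 30 °C and 1.53 at 8 °C. These genotype differences share their libraries with the interaction and are given as its components, here and below.

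Perm1 encodes a regulator that, in muscle, acts with PGC-1 coactivators and ERR receptors on mitochondrial genes, at chromosome 4, 156215868 to 156221307 (GRCm38). At 30 °C it was 2.53, 2.63 and 3.14 FPKM in WT and 2.49, 2.38 and 2.67 FPKM in AKO, and at 8 °C it was 9.09, 11.1 and 12.8 FPKM in WT and 21.4, 26.5 and 26.3 FPKM in AKO. The genotypes overlapped at 30 °C and were apart at 8 °C. The interaction was 1.20 (SE 0.19, adjusted p = 0.0336), from a 3.98-fold rise in WT and a 9.83-fold rise in AKO. Muscle also makes Perm1. The summed level of skeletal muscle markers was 841 to 1917 FPKM in WT_8C and 432 to 1162 FPKM in AKO_8C, with overlapping ranges.

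Hcn2, a cation channel opened by hyperpolarization, is at chromosome 10, 79716634 to 79736108 (GRCm38). It was under 1 FPKM in all 6 libraries at 30 °C, at 4.72, 6.19 and 7.19 FPKM in WT_8C and at 14.1, 17.2 and 14.7 FPKM in AKO_8C. The interaction was 1.32 (SE 0.20, adjusted p = 0.0336). Kng1, on chromosome 16, 23057865 to 23082078 (GRCm38), encodes kininogen, the precursor of bradykinin. It was listed at 0 in 5 of the 6 WT libraries, and the sixth, a WT_8C library, had 0.0644 FPKM. AKO_30C had 0.282, 0.024 and 0 FPKM and AKO_8C had 2.41, 2.23 and 2.28 FPKM. Its interaction was 1.56 (SE 0.19, adjusted p = 0.0267), at a level where the added 1 FPKM sets much of the value. Kng1 reached 1 FPKM in the 3 AKO_8C libraries alone, so it entered the test only through the group in which it was high, and it was not tested when any of these was left out.

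Sat1, the rate-limiting acetyltransferase of polyamine breakdown, at chromosome X, 155213132 to 155216449 (GRCm38), rose in AKO. It had 82.2, 74.5 and 80.7 FPKM in WT_30C, 77.0, 104 and 90.8 FPKM in WT_8C, 76.2, 65.5 and 73.4 FPKM in AKO_30C and 162, 159 and 162 FPKM in AKO_8C. Cold raised it in AKO by 1.16 on the log2 scale (adjusted p = 4.42e-06), while the WT difference of 0.18 did not pass (adjusted p = 0.178). The interaction was 0.98 (SE 0.15, adjusted p = 0.0336).

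Mreg and Mrgbp fell in the cold in WT and rose in AKO. Mreg encodes melanoregulin, a protein of melanosome and lysosome transport, on chromosome 1, 72159442 to 72212307 (GRCm38). It fell in WT from 14.2, 12.8 and 15.5 FPKM to 8.85, 6.85 and 9.09 FPKM and rose in AKO from 9.99, 8.14 and 9.88 FPKM to 13.7, 13.5 and 16.7 FPKM. The groups of a genotype did not overlap, and the interaction was 1.31 (SE 0.19, adjusted p = 0.0270). Mrgbp, a subunit of the NuA4 histone acetyltransferase complex, on chromosome 2, 180581304 to 180586304 (GRCm38), went from 12.4, 12.6 and 11.1 FPKM to 8.88, 9.81 and 9.41 FPKM in WT. In AKO it went from 8.75, 8.44 and 6.94 FPKM to 12.1, 14.1 and 14.8 FPKM. Its interaction was 1.02 (SE 0.16, adjusted p = 0.0336). For both genes AKO lay under WT at 30 °C and above it at 8 °C, with log2 differences of −0.56 and 0.76 for Mreg and −0.53 and 0.49 for Mrgbp.

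Most targets of the integrated stress response had a positive fitted interaction. Of 34 tested members, 30 were positive, where 59.7% of all genes were, with a median of 0.50 beside 0.07 for all genes. A total of 20 had an unadjusted p under 0.05 in the positive direction and 2 in the negative, beside 8.99% and 5.88% of all genes. The same 3 shares are the background of every list count given from here on. Only 1 of the 34, Wars, passed the adjusted test. The median cold response was 0.38 in WT and 0.93 in AKO, and the median AKO minus WT difference was −0.05 at 30 °C and 0.55 at 8 °C.

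Wars, the cytosolic tryptophanyl-tRNA synthetase, is at chromosome 12, 108860030 to 108894174 (GRCm38). It stood at 24.7, 23.5 and 24.9 FPKM in WT_30C and 23.2, 22.2 and 23.5 FPKM in AKO_30C. In the cold it was 34.0, 32.9 and 35.5 FPKM in WT and 50.6, 52.3 and 53.2 FPKM in AKO. The interaction of 0.68 (SE 0.11, adjusted p = 0.0336) came from a 1.40-fold rise in WT and a 2.27-fold rise in AKO. Other tRNA synthetases had interactions that did not pass, at 0.66 for Gars (adjusted p = 0.106) and 0.61 for Eprs (adjusted p = 0.106). Their 3 AKO_8C libraries lay above their 3 WT_8C libraries, at 110, 110 and 118 against 79.0, 70.8 and 72.4 FPKM for Gars.

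Fgf21, a hormone that stressed liver and cold-exposed fat are known to make, was close to the threshold. It was at most 0.265 FPKM in the 6 libraries at 30 °C and was listed at 0 in 4 of them. At 8 °C it was 4.33, 2.31 and 6.75 FPKM in WT and 35.0, 44.0 and 17.9 FPKM in AKO. The 3 AKO libraries were thus above the 3 WT libraries, with means 7.24-fold apart. Its interaction was 2.68 (SE 0.45, adjusted p = 0.0544). Gdf15, a stress hormone that acts on the hindbrain, was 1.999, 2.78 and 1.98 FPKM in WT_8C and 8.34, 14.4 and 4.76 FPKM in AKO_8C, with an interaction of 1.93 (adjusted p = 0.124).

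Several members rose in the cold in AKO, while their WT difference did not pass. Chac1, an enzyme that degrades glutathione, was 3.38, 4.27 and 5.27 FPKM in WT_8C and 12.2, 9.53 and 15.1 FPKM in AKO_8C, from 4.48 to 5.92 FPKM in the libraries at 30 °C. Its cold response was −0.20 in WT (adjusted p = 0.375) and 1.14 in AKO (adjusted p = 0.000246), and the interaction was 1.33 (adjusted p = 0.0909). Mthfd2, a mitochondrial folate enzyme, went the same way, at 10.7, 14.8 and 18.0 FPKM in WT_8C and 25.4, 27.1 and 30.3 FPKM in AKO_8C. At 30 °C it was 18.2, 16.8 and 18.8 FPKM in WT and lower in AKO, at 15.7, 13.0 and 12.7 FPKM. Atf4 mRNA was 105, 135 and 124 FPKM in WT_8C and 190, 216 and 189 FPKM in AKO_8C, with an interaction of 0.93 (adjusted p = 0.106). Ddit3, which encodes the stress factor CHOP, had an interaction of 0.88 (adjusted p = 0.146) with cold responses of 0.81 in AKO (adjusted p = 0.00107) and −0.06 in WT (adjusted p = 0.756). Trib3, a pseudokinase induced by CHOP, rose in both genotypes, with an interaction of 1.80 (adjusted p = 0.158). None of these passed the interaction test, so a difference between their cold responses was not established at the adjusted threshold.

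Members of the list did not move as 1 block. Asns, the asparagine synthetase, is an often used ATF4 target. It rose in both genotypes, from 15.7, 18.3 and 14.6 to 78.0, 47.1 and 53.5 FPKM in WT and from 17.1, 17.6 and 24.9 to 73.4, 65.0 and 89.2 FPKM in AKO. Its interaction was 0.10 (SE 0.27, adjusted p = 0.884). Stc2, a secreted glycoprotein, went the other way with an interaction of −1.42 (adjusted p = 0.146), at 12.6, 5.30 and 5.71 FPKM in WT_8C and 2.41, 3.38 and 2.26 FPKM in AKO_8C.

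**Figure D3:**
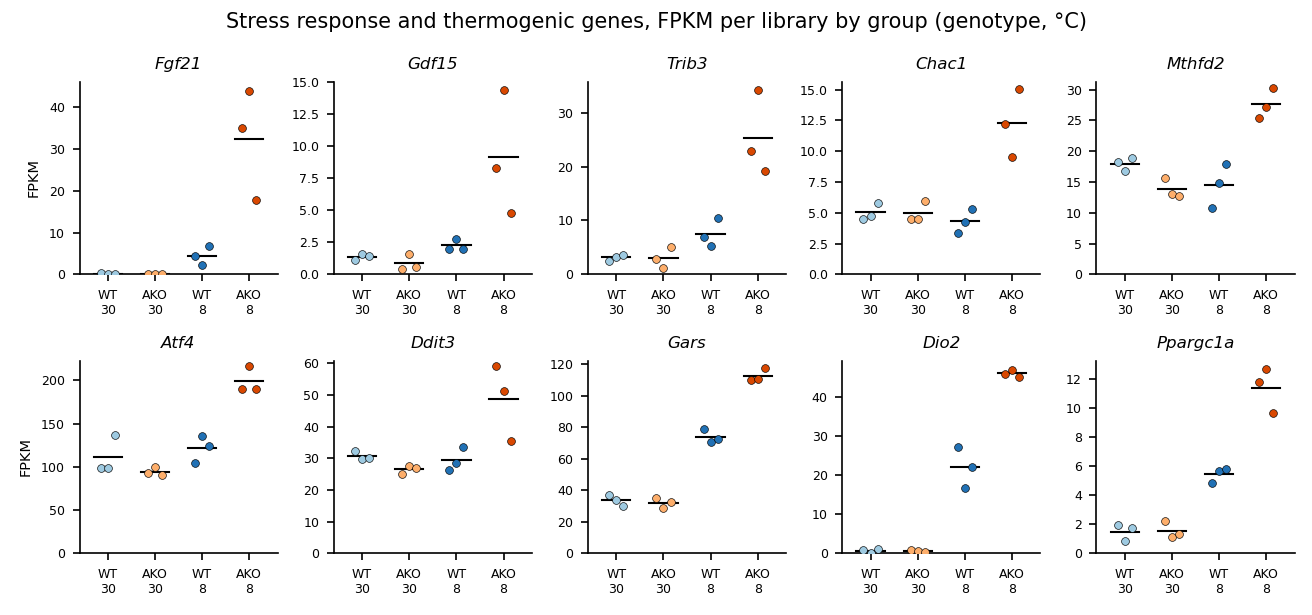
FPKM of 8 stress response genes and of the thermogenic genes Dio2 and Ppargc1a, 1 point per library and a line at each group mean; each panel has its own axis from 0. The AKO_8C libraries lie above those of WT_8C in all 10 panels, whose genes were picked for display, and the share of all genes with this pattern was not counted. Of the stress response list, Asns, not shown, overlapped between the genotypes at 8 °C, and Stc2, not shown, was lower in AKO_8C. At 30 °C the AKO libraries lie below those of WT for Mthfd2 and Ddit3. Their log2 differences there are −0.36 and −0.20, against 0.91 and 0.68 at 8 °C.

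ATF4 with a C/EBP partner binds an amino acid response element. The letters TGATGNAA, a core form of it, were searched on both strands of promoters taken from RefSeq (GRCm38.p6), from 250 bases before to 50 bases after each start. They occurred in the promoter of 10 of 31 matched members (32.3%), against 278 of 9997 tested genes with a promoter (2.78%) and 1219 of all 27025 genes (4.51%). A match describes letters, not binding. Of the 8 genes with a called positive interaction, 6 had a promoter in the table and 0 held the motif. All 7 genes with a called negative interaction had a promoter, and 1, Cd5l, held it. These sets are too small to set against the 2.78%. The promoters of 3 members are shown because they hold the motif and differ in the interaction: Fgf21 and Chac1, with values of 2.68 and 1.33, and Asns, with 0.10. Capitals mark the motif, which stands as its reverse complement in Fgf21 and Chac1. Its first base lies 139 bases before the start in Fgf21 (chr7:45615441-45615740, minus strand), 193 in Chac1 (chr2:119350992-119351291, plus strand) and 23 in Asns (chr6:7693160-7693459, minus strand).
Fgf21: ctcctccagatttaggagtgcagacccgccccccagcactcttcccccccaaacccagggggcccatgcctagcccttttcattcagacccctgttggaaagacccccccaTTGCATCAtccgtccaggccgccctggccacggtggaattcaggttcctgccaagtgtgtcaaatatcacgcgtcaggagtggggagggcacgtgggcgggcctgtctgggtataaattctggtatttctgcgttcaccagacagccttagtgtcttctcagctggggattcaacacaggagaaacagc
Chac1: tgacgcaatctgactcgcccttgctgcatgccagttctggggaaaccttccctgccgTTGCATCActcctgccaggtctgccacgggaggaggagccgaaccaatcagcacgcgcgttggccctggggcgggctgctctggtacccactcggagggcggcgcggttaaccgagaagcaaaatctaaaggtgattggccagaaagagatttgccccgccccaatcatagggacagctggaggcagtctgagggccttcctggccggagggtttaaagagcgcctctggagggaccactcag
Asns: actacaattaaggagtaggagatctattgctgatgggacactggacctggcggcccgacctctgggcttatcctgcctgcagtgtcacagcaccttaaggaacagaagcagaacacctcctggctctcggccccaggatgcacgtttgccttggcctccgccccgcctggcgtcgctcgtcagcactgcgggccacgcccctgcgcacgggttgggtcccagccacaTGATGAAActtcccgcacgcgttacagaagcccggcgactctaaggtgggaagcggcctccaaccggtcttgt

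Xbp1 and the lists of XBP1s and ATF6 targets gave smaller values than the integrated stress response list. Xbp1 was 71.7 to 90.7 FPKM in WT_8C and 64.5 to 145 FPKM in AKO_8C, overlapping, with an interaction of 0.17 (SE 0.36, adjusted p = 0.847), and its spliced form cannot be read from these values. Of 39 XBP1s targets, 0 passed, and 3 had an unadjusted p under 0.05 in the positive direction, a share below the 8.99% of all genes. Their median was 0.11. Of 18 ATF6 targets and chaperones, 0 passed and 3 had an unadjusted p under 0.05, all positive, with a median of 0.08. The members with the smallest p were Dnajb9, a co-chaperone (0.91, adjusted p = 0.139), Herpud1, of the degradation machinery (0.75, adjusted p = 0.135), and Hspa5, the chaperone BiP (0.50, adjusted p = 0.147). Hspa5 was 156, 140 and 143 FPKM in WT_8C and 199, 204 and 200 FPKM in AKO_8C. Of 12 transcripts reported as cleaved by IRE1, 10 had a negative interaction and 0 passed. At an unadjusted p under 0.05 there were 5 negative and 1 positive, Ppargc1a, and the median was −0.40. Sparc, Col6a1 and Pdgfrb of that list are also genes of the matrix and stroma.

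Most genes of thermogenesis and oxidative metabolism rose in the cold in both genotypes, and Acot2 was the only one of these lists to pass the interaction test. Of 29 thermogenic genes, 23 rose in WT and 24 in AKO, while 1, the β3-adrenergic receptor gene Adrb3, fell in AKO. The median cold response was 1.71 and 2.57. The median interaction was 0.60, with 23 positive and 6 negative values, 0 calls and 12 unadjusted p under 0.05, all positive. Dio2, the deiodinase that activates thyroid hormone, was 27.2, 16.8 and 22.0 FPKM in WT_8C and 46.0, 47.1 and 45.3 FPKM in AKO_8C, an interaction of 1.15 (adjusted p = 0.160). Ppargc1a, the PGC-1α coactivator, was 4.81, 5.69 and 5.77 FPKM in WT_8C and 11.8, 12.7 and 9.61 FPKM in AKO_8C, an interaction of 0.90 (adjusted p = 0.203). For Ucp1 the interaction was 0.39 (SE 0.81, adjusted p = 0.847), too imprecise to place, since AKO_30C ranged from 4.20 to 38.1 FPKM.

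All 33 subunits of oxidative phosphorylation rose in both genotypes, and all 33 fitted interactions were positive, from 0.16 to 0.61 with a median of 0.37. None passed, and 12 had an unadjusted p under 0.05, where 59.7% of all genes were positive and 8.99% positive at that p. Their median AKO minus WT difference was 0.01 at 30 °C and 0.38 at 8 °C. AKO_30C replicate 1 stood apart, with a summed level of 13503 FPKM against 10199 and 9941 FPKM in its group and 10301 to 11521 FPKM in WT_30C. Without it, the median difference at 30 °C was −0.15 and the median interaction 0.49, with all 33 positive. The same library was the highest of its group in thermogenic, tricarboxylic acid cycle and fatty acid oxidation sums, and without it their median differences at 30 °C went from 0.04, 0.03 and 0.13 to −0.08, −0.21 and −0.09. The 14 enzymes of the tricarboxylic acid cycle likewise had 14 positive values, 0 calls, 6 unadjusted p under 0.05 and a median of 0.49. Of 24 fatty acid oxidation genes, Acot2 was the only call, 5 had an unadjusted p under 0.05, all positive, and the median was 0.29. Timm10, a chaperone of mitochondrial protein import outside these lists, did not pass (interaction 0.69, adjusted p = 0.0574). It was 108, 106 and 116 FPKM in WT_8C and 151, 165 and 168 FPKM in AKO_8C. Glycolysis had a median of 0.50 over 19 genes, with 0 calls and 7 unadjusted p under 0.05, all positive, among them Pgk1 (0.69, adjusted p = 0.106).

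Leptin had the clearest reversal among adipocyte genes. Lep, the hormone by which fat reports its energy store, lies on chromosome 6, 29060220 to 29073877 (GRCm38). In WT it was 39.8, 43.3 and 27.3 FPKM at 30 °C and 88.9, 68.8 and 49.8 FPKM at 8 °C. In AKO it was 68.1, 41.1 and 109 FPKM at 30 °C and 10.1, 13.7 and 13.7 FPKM at 8 °C. The AKO_8C libraries were the lowest of the 12, and the other 3 groups overlapped except WT_30C with WT_8C. Cold thus raised Lep 1.88-fold in WT (adjusted p = 0.0330) and lowered its mean to 0.172 of the 30 °C value in AKO (adjusted p = 6.88e-05). The interaction was −3.23 (SE 0.44, adjusted p = 0.0267) and lay between −3.59 and −2.89 with each library left out in turn.

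Of the 19 adipokine and adipocyte genes tested, Lep was the only call, 5 had an unadjusted p under 0.05, all negative, and the median was −0.47. Adipoq (−0.77, adjusted p = 0.201), Sncg (−1.27, adjusted p = 0.242) and Retn, the resistin gene (−0.96, adjusted p = 0.269), did not pass. WT_8C replicate 1 held the highest Retn value of that group, 3747 FPKM against 1539 and 2270.2 FPKM. In lipogenesis, 4 of 16 genes had an unadjusted p under 0.05, all negative, with 0 calls and a median of 0.23. They included Mid1ip1, an activator of acetyl-CoA carboxylase (−1.32, adjusted p = 0.124), and Srebf1, the lipogenic transcription factor (−0.91, adjusted p = 0.169). G0s2, an inhibitor of the lipase ATGL, had an interaction of −1.37 (adjusted p = 0.146), at 541 ± 117 FPKM in WT_8C and 375 ± 133 FPKM in AKO_8C (SD, n = 3).

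The other negative calls were Marco, Cd5l, Saa3, Ccl8, C6 and Mfsd12. In bulk tissue, fewer cells of a type and less RNA per cell cannot be told apart. Marco, a scavenger receptor of macrophages, lies on chromosome 1, 120474538 to 120505024 (GRCm38). WT had 2.43, 8.34 and 5.60 FPKM at 30 °C and 26.5, 32.9 and 52.6 FPKM at 8 °C, and AKO had 21.2, 16.0 and 13.5 FPKM at 30 °C and 9.28, 6.78 and 10.0 FPKM at 8 °C. It rose 6.84-fold in WT and fell to 0.515 of its 30 °C mean in AKO, an interaction of −3.51 (SE 0.47, adjusted p = 0.0267). AKO lay above WT at 30 °C and under it at 8 °C, by 1.56 and −1.94 on the log2 scale.

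Cd5l, a protein secreted by macrophages that holds back their death, lies on chromosome 3, 87357881 to 87371073 (GRCm38). It was 5.08, 4.90 and 9.73 FPKM in WT_8C, and at most 1.54 FPKM in each of the other 9 libraries. The interaction was −2.70 (SE 0.38, adjusted p = 0.0270). Saa3, an acute phase serum amyloid, on chromosome 7, 46711998 to 46715700 (GRCm38), had the same shape, at 10.0, 11.0 and 42.6 FPKM in WT_8C and at most 1.42 FPKM elsewhere. Its interaction was −3.99 (SE 0.61, adjusted p = 0.0336). Outside WT_8C, Saa3 reached 1 FPKM only in AKO_30C replicate 1, at 1.42 FPKM. It thus entered the test only through the group in which it was high. Cold raised both genes in WT, and their AKO differences of −0.34 and −0.16 did not pass (adjusted p = 0.311 and 0.780).

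Ccl8, a chemokine for monocytes and other leukocytes, lies on chromosome 11, 82115185 to 82116799 (GRCm38). It rose in WT from 20.4, 23.0 and 25.6 FPKM to 87.4, 115 and 188 FPKM, while AKO had 67.9, 45.2 and 80.5 FPKM at 30 °C and 72.3, 66.4 and 80.4 FPKM at 8 °C. The interaction was −2.17 (SE 0.35, adjusted p = 0.0444). C6, a component of the membrane attack complex of complement, on chromosome 15, 4727175 to 4814967 (GRCm38), was low, at 0.201 to 0.486 FPKM in WT_30C, 1.54 to 2.49 FPKM in WT_8C, 1.68 to 2.34 FPKM in AKO_30C and 0.635 to 1.61 FPKM in AKO_8C. Its interaction was −1.69 (SE 0.28, adjusted p = 0.0444). For both, AKO was already higher than WT at 30 °C, by 1.42 for Ccl8 (adjusted p = 0.0332) and 1.20 for C6 (adjusted p = 0.0292). Mfsd12, a transporter of the lysosome membrane on chromosome 10, 81357491 to 81366225 (GRCm38), was 15.5, 12.7 and 14.5 FPKM in WT_8C and 5.25 to 8.31 FPKM in the other 9 libraries, with an interaction of −1.12 (SE 0.17, adjusted p = 0.0336).

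Acute phase and inflammation genes had no common sign. Of 18 tested, 8 had a positive and 10 a negative interaction, from −3.99 to 3.05 with a median of −0.25. The calls were Saa3 and Ccl8, and at an unadjusted p under 0.05 there were 2 positive and 6 negative. The positive ones were Ptx3, a soluble pattern recognition protein (3.05, adjusted p = 0.220), and Tnf, the cytokine (0.62, adjusted p = 0.251). Ptx3 was 31.2, 3.62 and 38.0 FPKM in AKO_8C and at most 4.13 FPKM in the other 9 libraries. The negative ones included Hp, the haemoglobin scavenger haptoglobin (−1.29, adjusted p = 0.206).

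Macrophage markers as a list shared the sign of these calls. Of 24 tested, 23 had a negative interaction, 2 passed (Marco and Cd5l), 17 had an unadjusted p under 0.05, all negative, and the median was −1.35. The median AKO minus WT difference was 1.28 at 30 °C and −0.02 at 8 °C, and the median cold response was 0.71 in WT and −0.58 in AKO. The summed level of the markers, without Lpl, which adipocytes also make, was 435 to 466 FPKM in WT_30C and 1315 to 1899 FPKM in AKO_30C. In the cold it was 512 to 1034 FPKM in WT and 508 to 1058 FPKM in AKO, so the genotypes overlapped there. No marker was at 0 in all libraries. Of the sum without Lpl, Retnla alone made up 622 to 792 FPKM in AKO_30C and 79.0 to 111 FPKM in WT_30C. The broad marker Csf1r was also higher in AKO at 30 °C and overlapped between genotypes in the cold. Csf1r, the receptor for colony stimulating factor, was 13.6, 15.7 and 13.4 FPKM in WT_30C, 16.2, 33.0 and 23.2 FPKM in WT_8C, 27.5, 25.7 and 37.6 FPKM in AKO_30C and 18.6, 25.8 and 16.4 FPKM in AKO_8C. The Csf1r interaction was −1.23 (adjusted p = 0.160). At 8 °C the AKO minus WT difference was −0.21 for Csf1r and −0.07 for C1qc, a complement gene of macrophages, against −1.94 for Marco and −2.13 for Cd5l. The part of macrophage number in the calls was not tested.

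Related members of a lectin family, Cd209b (−2.49, adjusted p = 0.0970), Cd209d (−1.59, adjusted p = 0.107) and Cd209f (−3.36, adjusted p = 0.112), had negative interactions that did not pass, and reads may be split among them. Siglec1, a sialic acid receptor of macrophages, was at −1.58 (adjusted p = 0.107). Retnla, a product of alternatively activated macrophages, was 79.0 to 111 FPKM in WT_30C, 622 to 792 FPKM in AKO_30C, 106 to 303 FPKM in WT_8C and 104 to 362 FPKM in AKO_8C. The genotypes were apart at 30 °C and overlapped in the cold (interaction −2.60, adjusted p = 0.124). Cmklr1, the chemerin receptor, was at −1.61 (adjusted p = 0.0811), from 18.4 ± 4.25 to 30.2 ± 4.06 FPKM in WT and from 31.7 ± 10.7 to 15.9 ± 0.557 FPKM in AKO (SD, n = 3).

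Stromal lists had negative medians too. Of 32 collagen and matrix genes, 30 had a negative interaction, 0 passed, 19 had an unadjusted p under 0.05, all negative, and the median was −0.91. Their median AKO minus WT difference was 0.85 at 30 °C and 0.12 at 8 °C. Examples were Loxl1, a crosslinking enzyme of elastin (−1.48, adjusted p = 0.156), and Lum, the proteoglycan lumican (−1.13, adjusted p = 0.176). Of 21 fibroblast and progenitor markers, 0 passed, 11 had an unadjusted p under 0.05, all negative, and the median was −0.67. Their summed level was 534 to 610 FPKM in WT_30C, 879 to 1500 FPKM in AKO_30C, 644 to 913 FPKM in WT_8C and 648 to 1025 FPKM in AKO_8C. Pi16, a marker of interstitial progenitors, was 3.90 to 5.49 FPKM in WT_30C and 16.4 to 167 FPKM in the other 9 libraries, with an interaction of −3.33 (SE 0.82, adjusted p = 0.146). Mast cell and neutrophil markers had a median of −1.43 over 10 genes, with 0 calls and 5 unadjusted p under 0.05, all negative. Among them Cma1, a mast cell chymase, was 1.36 ± 0.893 FPKM in WT_30C and between 7.98 and 8.51 FPKM on average in the other groups.

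Among the other immune lists, T cell markers did not share the negative sign, whereas B cell and interferon response genes mostly did. T cell markers fell in the cold in both genotypes, 16 of 16 in each. Their interaction was positive for 12 and negative for 4, with a median of 0.07, beside 0.07 for all genes. B cell markers fell for 10 of 12 in WT and 11 of 12 in AKO. Their interaction was negative for 11 of 12, with a median of −0.29, 0 calls and 0 unadjusted p under 0.05. Of 24 interferon response genes, 22 had a negative interaction, 8 had an unadjusted p under 0.05, all negative, 0 passed and the median was −0.79. Their median AKO minus WT difference was −0.09 at 30 °C and −0.75 at 8 °C. The summed level, set by the most abundant members, was 1946 to 3774 FPKM in WT_30C, 2334 to 3822 FPKM in WT_8C, 2686 to 5128 FPKM in AKO_30C and 2002 to 2428 FPKM in AKO_8C, overlapping between genotypes at both temperatures. Ifit3, an interferon-induced gene, was 15.6 ± 4.81 FPKM in WT_8C and 5.41 ± 4.29 FPKM in AKO_8C (SD, n = 3; interaction −1.71, adjusted p = 0.226). Skeletal muscle markers had a median of −0.85 over 15 genes, all 15 negative where 59.7% of all genes were positive. They held 0 calls and 2 unadjusted p under 0.05. The median cold response was −1.89 in WT and −2.74 in AKO. Their sums ranged from 3717 to 9702 FPKM in WT_30C and from 3958 to 7596 FPKM in AKO_30C, and their part in other results was not tested.

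**Figure D4:**
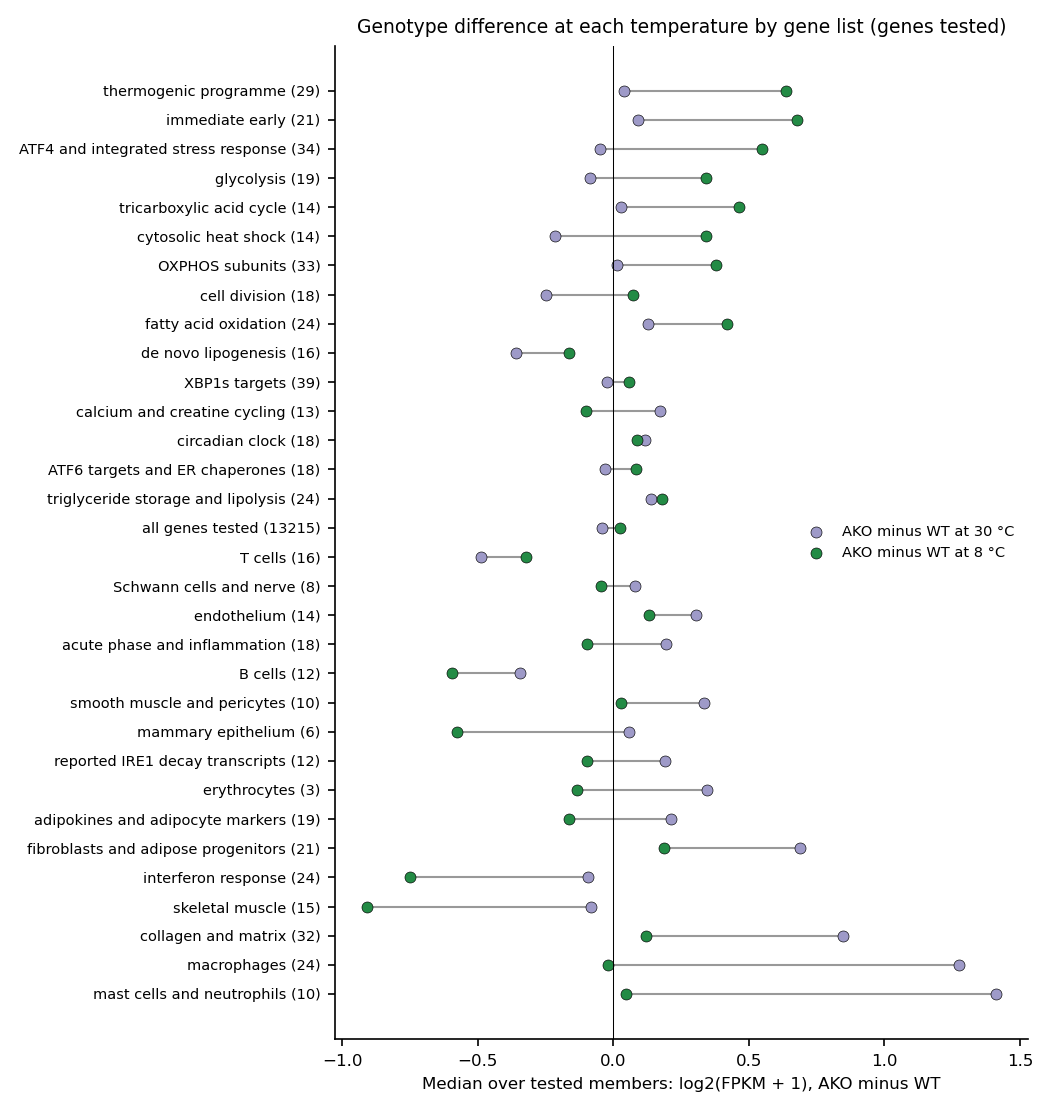
Median log2 difference of AKO minus WT at 30 °C and at 8 °C over the tested members of each list (number in brackets), ordered by the median interaction; the line joining the points of a list spans the change between temperatures. Stromal, macrophage and mast cell lists lie well above 0 at 30 °C and near 0 at 8 °C, whereas the thermogenic, oxidative phosphorylation (OXPHOS) and integrated stress response lists lie near 0 at 30 °C and above it at 8 °C.

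The lists that follow held no call. Immediate early genes had a median of 0.59 over 21 genes, of which 20 were positive, with 2 unadjusted p under 0.05, both positive. WT_8C replicate 2 summed to 1762 FPKM over these genes against 414 and 431 FPKM in its group. Junb, of the same list, passed in 1 of the 12 fits that leave out 1 library. The growth arrest gene Gadd45b (0.88, adjusted p = 0.0774) fell in WT from 49.2 ± 1.76 to 21.5 ± 2.68 FPKM, while in AKO it was 30.1 ± 3.32 and 24.4 ± 2.25 FPKM (SD, n = 3). Heat shock genes had a median of 0.45 over 14 genes and 5 unadjusted p under 0.05, all positive. Cell division genes had a median of 0.32 over 18, all 18 positive where 59.7% of all genes were, with 0 unadjusted p under 0.05. Unadjusted p under 0.05 numbered 2 positive of 18 clock genes, 2 positive and 1 negative of 13 calcium and creatine genes, 2 positive and 1 negative of 24 triglyceride genes, 1 negative of 14 endothelial and 2 negative of 10 smooth muscle genes. There were 0 among 6 mammary, 8 Schwann cell and 3 erythrocyte genes. Medians of these lists lay between −0.41 and 0.10.

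Another reading of a change in sign asks for a called cold response in both genotypes with opposite directions. It does not ask that the interaction pass. This held for 24 genes, 0.182% of those tested, and these were picked out after their values were seen. In 7 the gene fell in WT and rose in AKO, and in 17 it rose in WT and fell in AKO. The interaction test was passed by 4 of the 24: Lep, Marco, Mreg and Mrgbp. Among the others, Gtpbp2, a GTP-binding protein linked to ribosome stalling, fell by 0.42 in WT and rose by 0.21 in AKO. Chka, the choline kinase of phosphatidylcholine synthesis, fell by 0.50 and rose by 0.30. Folr2, a folate receptor of resident macrophages, rose by 1.19 and fell by 1.15. Cxcl12, a chemokine of stromal cells, rose by 0.34 and fell by 0.35. Gdf10, a BMP-related ligand, rose by 0.98 and fell by 0.72.

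**Figure D5:**
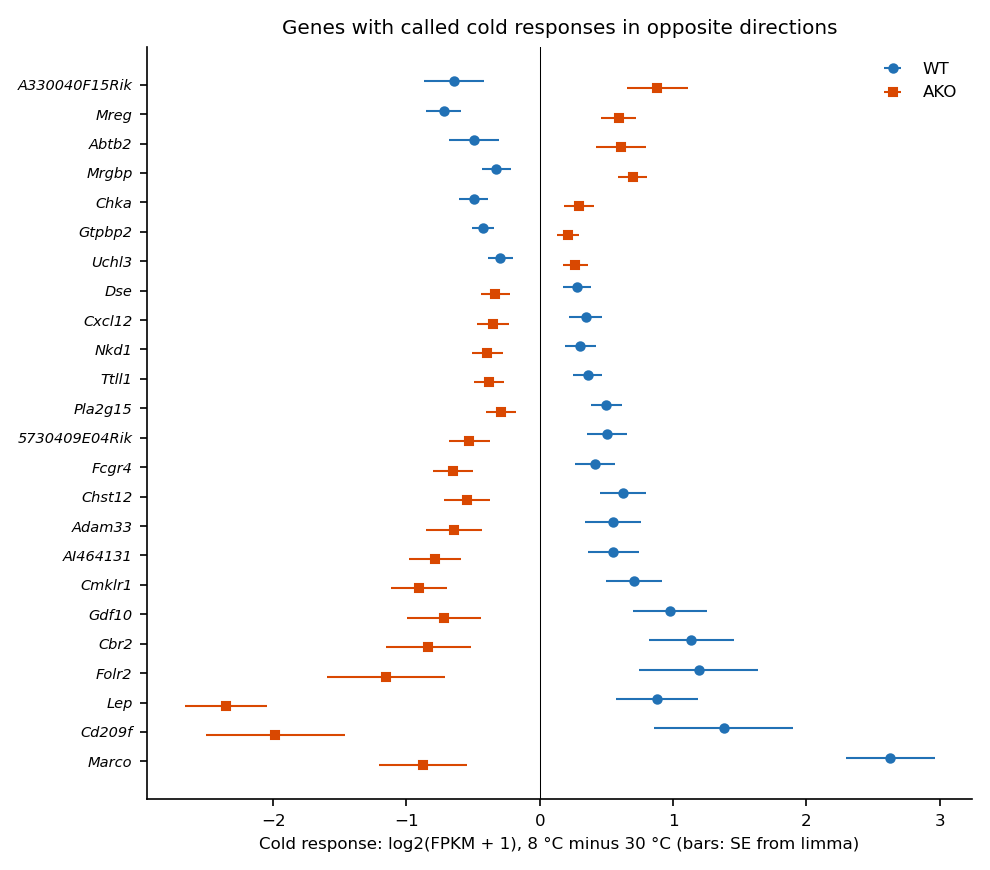
Cold response, as the log2(FPKM + 1) difference between 8 °C and 30 °C with its limma SE, in WT (circles) and AKO (squares) for the 24 genes called in both genotypes in opposite directions. The 7 upper genes are lower at 8 °C in WT and higher in AKO, and the 17 lower genes the reverse, with Marco, Cd209f and Lep spanning the widest gaps.

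The authors compared AKO with WT at each temperature in separate libraries. The authors' deposited tables share 199 genes, 18.5% of the 8 °C table and 22.7% of the 30 °C table, of which 151 have the same sign and 48 opposite signs. Of these 48, 44 were higher in AKO at 30 °C and lower at 8 °C, and 4 the reverse: Mreg, Aspg, an asparaginase, and the heat shock genes Hspa1a and Hspa1b, whose near-identical sequences may share reads. The 48 included 6 of the 15 interaction calls (Lep, Marco, Cd5l, Ccl8, C6 and Mreg). They also held 4 members of the macrophage list and 2 of the muscle list. These counts cover list members only. Other muscle genes among the 48 were Actn2, Ankrd2, Lmod2, Myl3, Myom3 and Myoz2, and Siglec1 and Cd209b were there too. For Lep, the authors' deposited tables give a log2 fold change of 0.98 at 30 °C and −2.47 at 8 °C. For Marco, the authors' deposited tables give 1.63 and −2.10. Of the 15 calls, 12 were in the authors' deposited 8 °C table, 6 in their 30 °C table and 3 (Hcn2, Kng1 and Mrgbp) in neither.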

How the data were processed

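RNA sequencing of 12 libraries, 3 in each of 4 groups taken from the sample labels, was analysed from the deposited tables. Per the submitters' processing notes, the tools were bcl2fastq, FastQC 0.11.3, TopHat2 2.0.14 and Cufflinks 2.2.1 and the build mm10. The annotation and options are not given in the sources used here. The authors' gene table holds FPKM, as 99.986% of nonzero values are fractional and group means equal the FPKM of the authors' comparison tables for all 2150 values at 8 °C and 1748 at 30 °C. Per the file headers, those deposited tables give each gene's log2 fold change, score (the test statistic), p-value, and q-value.

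Values were used as log2(FPKM + 1) with the authors' scaling. Scd1 and Snora81 were left out, their values ranging from 0 to at least 1000 FPKM among libraries, and 25 symbols turned into dates (20 tested) are not named. limma 3.58.1 in R 4.3.3 fitted 1 mean per group with a variance trend and no covariate. Tests were two-sided with Benjamini-Hochberg adjustment over all genes tested, and a call is an adjusted p under 0.05. The count test planned for read counts could not be used on FPKM. The script was tested on simulated data. Figures used Python 3.11.15 and matplotlib 3.10.9. Positions and RefSeq promoters are of GRCm38.

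Named genes were a fixed list, called genes (up to 20 per direction) with a highest group mean of at least 3 FPKM, those of next smallest p to fill 12 per direction, up to 4 members of each list by p or any member described with its list, and genes of opposite sign in the authors' tables. Kng1 and C6, below that level, genes of opposite cold responses, and Eif3j1, Snord17 and Eprs were named after their values were seen. Members and lists were chosen with earlier results of these data known. Alternatives were other filters, pseudocounts of 0.1 and 0.5, a square root scale, other variance models, 3 scalings, a replicate block, an adjusted p of 0.10, each library left out, the authors' genes, and, added after the data were seen, a macrophage sum without Lpl and genotype differences at 30 °C without AKO_30C replicate 1.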

Additional observations from a re-analysis of the deposited data

Results flagged for a closer look

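Each of the following genes had a cold response that differed between the genotypes by the interaction test itself. The values are the log2 interaction, the cold response in AKO less that in WT. They were 1.58 for Acot2, 1.56 for Kng1, 1.32 for Hcn2, 1.31 for Mreg, 1.20 for Perm1, 1.02 for Mrgbp, 0.98 for Sat1 and 0.68 for Wars. They were −3.99 for Saa3, −3.51 for Marco, −3.23 for Lep, −2.70 for Cd5l, −2.17 for Ccl8, −1.69 for C6 and −1.12 for Mfsd12. Adjusted p from limma lay between 0.0267 and 0.0444. Kng1 and Saa3 entered the test only through the group in which they were high. Acot2, Marco and Lep passed in 5 of the 12 fits that leave out 1 library, and Mrgbp and Wars in 0.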

How the results depend on the processing

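The 15 calls kept their sign under every alternative in which they were tested, but their number did not hold. From 8 positive and 7 negative calls, the counts became 1 and 0 with no filter on low values, 2 and 2 with a pseudocount of 0.1, 42 and 8 on the square root scale, 3 and 7 with upper quartile scaling, 3 and 5 with equal sums and 16 and 12 at an adjusted p of 0.10. Of the positive calls, 5 were in the authors' tables, which rest on the same libraries. Leaving out each library gave 0 to 9 positive and 0 to 7 negative calls, 5217 to 6446 cold calls in WT and 5504 to 6616 in AKO. Other settings kept the positive count between 6 and 8 and the negative between 5 and 8. The median of all genes was 0.07 as reported and −0.03 with equal sums, so list medians near 0.07 have no settled direction. Same-numbered libraries were not paired by the labels, their deviations correlated at −0.11 to 0.20, and a fit with a replicate block called 16 positive and 7 negative genes, 12 of them among the 15. Values under the test threshold that changed sign were those of Ern1 (−0.0142 with upper quartile scaling, −0.0367 with equal sums, and −0.0192 to 0.147 with a library left out) and, with a library left out, Xbp1 (−0.0814 to 0.495), Ucp1 (−0.178 to 1.28), Mbp (−0.685 to 0.0834) and Sox10 (−0.547 to 0.124). Causes were not tested. Read depth is unknown, and 3 mice per group limit every interaction.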
